A study of Rattus norvegicus with 16 samples.

Results

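The rat gene Gstp1 codes for the pi-class glutathione transferase known in rat liver as the placental form, GST-P. It was followed here in liver RNA of rats given 3 related dithiolethiones. The array platform assigns its symbol to 2 of the 8740 probe sets, rc_AI012589_s_at and X02904cds_s_at, and both entered the fit. The gene was chosen by its values on these same arrays, where its level was graded over the compounds. Its group levels and differences are therefore a description and carry no test. On the log2 GCRMA scale, on which 1 unit is a 2-fold step, the brighter probe set averaged 6.13 ± 0.14 with vehicle, 8.33 ± 1.21 with oltipraz, 10.41 ± 1.27 with TBD and 12.51 ± 0.45 with D3T (SD, n = 4 each).

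The 16 animals were male F344 rats, 6 weeks old on arrival, singly housed and kept on AIN 76A chow. They were divided at random into 4 groups of 4, with 1 array for each animal. The compound groups received 0.3 mmol/kg in 100 µl by gavage on every other day, 3 doses over 5 days, and were killed 24 h after the last dose. The vehicle, which all groups received, was saturated sucrose. The vehicle animals are titled as untreated although the protocol gives them the sucrose, and some sample labels speak of diet where the design text speaks of gavage. D3T is 3H-1,2-dithiole-3-thione, the unsubstituted ring. On that ring oltipraz (OLT) has methyl and pyrazinyl groups at its 4 and 5 positions, and TBD a tert-butyl at its 5 position.

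Glutathione transferases join glutathione to electrophiles so that these can be exported from the cell. GST-P is scarce in hepatocytes of the normal adult rat, is found in bile duct cells, and is a classical marker of preneoplastic hepatocyte foci in this species. Dithiolethiones release the transcription factor NRF2 from its inhibitor KEAP1, and NRF2 with small MAF proteins binds antioxidant response elements of detoxication genes. The best studied enhancer of rat Gstp1, known as GPE1, lies far upstream of the gene. Elements of that kind resemble the TPA response element, which AP-1 binds.

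The stretch before the Gstp1 start site is shown because it holds a sequence of that kind close to the start. It covers the 250 bases upstream of the start in RefSeq, assembly GRCr8, chr1:210769706-210769955, minus strand, and is written 5′ to 3′ in the gene's direction. It does not reach GPE1. The capitals mark TGACTCAGC, 9 letters at bases -61 to -53, counted back from the start site. They hold the TPA response element letters TGACTCA and also match TGACNNNGC, the core letters of the antioxidant response element.
Gstp1: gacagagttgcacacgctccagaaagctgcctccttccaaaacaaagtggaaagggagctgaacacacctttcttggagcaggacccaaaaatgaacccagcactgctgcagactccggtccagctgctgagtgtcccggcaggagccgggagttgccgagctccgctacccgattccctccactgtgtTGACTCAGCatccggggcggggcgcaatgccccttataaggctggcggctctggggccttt

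Searched on both strands of the same 250 bases in 33469 rat promoters, TGACTCAGC was found in 0.376%, TGACTCA in 4.05% and TGACNNNGC in 10.1%. The motifs overlap, so the Gstp1 match is 1 site counted under each of them. GGGCGG, the core of an SP1 site, was found in Gstp1 at base -47 and in 30.5% of the promoters. A match is a run of letters and not a site shown to be bound, and no binding was measured here.

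Among 47 other tested genes of the Gstp1 pathway with an entry, 11 (23.4%) held TGACNNNGC, and 12 tested genes had no entry. The pathway lists include regulators of Gstp1 and focus markers, and Cebpb and Cd44 from those lists are among the 11. The same 9 letters as in Gstp1 stood before Prdx1, a peroxiredoxin, and Me1, the NADPH-forming malic enzyme. Gsta3, an alpha-class glutathione transferase, and Gclm, the modifier subunit of glutamate cysteine ligase, held other versions of the core. They are printed to set their letters beside those of Gstp1, with the core in capitals and read in the direction of the core. Gsta3 lies at chr9:31154960-31154988 on the plus strand and Me1 at chr8:96540391-96540423 on the minus strand. The core is on the opposite strand to the gene for Prdx1 at chr5:135383759-135383791 and for Gclm at chr2:213031951-213031983.
Prdx1: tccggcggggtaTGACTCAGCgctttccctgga
Me1: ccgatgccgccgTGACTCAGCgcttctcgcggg
Gsta3: gcaactcaggcaTGACTTCGCattttttc
Gclm: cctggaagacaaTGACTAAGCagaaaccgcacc

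The array medians lay between 3.27 and 3.58, and arrays of a group correlated with each other at r = 0.983 to 0.997 over all probe sets. Of the 8740 probe sets, 5323 passed a filter on low values and were fitted with limma, and they represent 3104 named genes. OLT 1 and TBD 4 stood apart from the rest on the second principal component, at -21.7 and -21.8. These are also the arrays with the highest Gstp1 of their groups, and Gstp1 is given below with and without them. Hepatocyte markers were bright on every array, and their list averaged between 13.3 and 13.8 per array. RNA of whole liver was measured, so fewer cells of a type and less RNA per cell cannot be told apart.

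With vehicle, the brighter Gstp1 probe set read 6.33, 6.14, 6.04 and 6.02 in the 4 rats. With OLT it read 9.36, 6.61, 8.92 and 8.43, and with TBD 8.56, 10.69, 10.99 and 11.39. With D3T it read 12.36, 12.02, 12.57 and 13.10. The vehicle rats were tightly bunched, and all 12 treated rats lay above the highest of them. All D3T rats lay above all TBD and OLT rats. TBD and OLT overlapped, because TBD 1 was below OLT 1 and OLT 3.

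**Figure D1:**
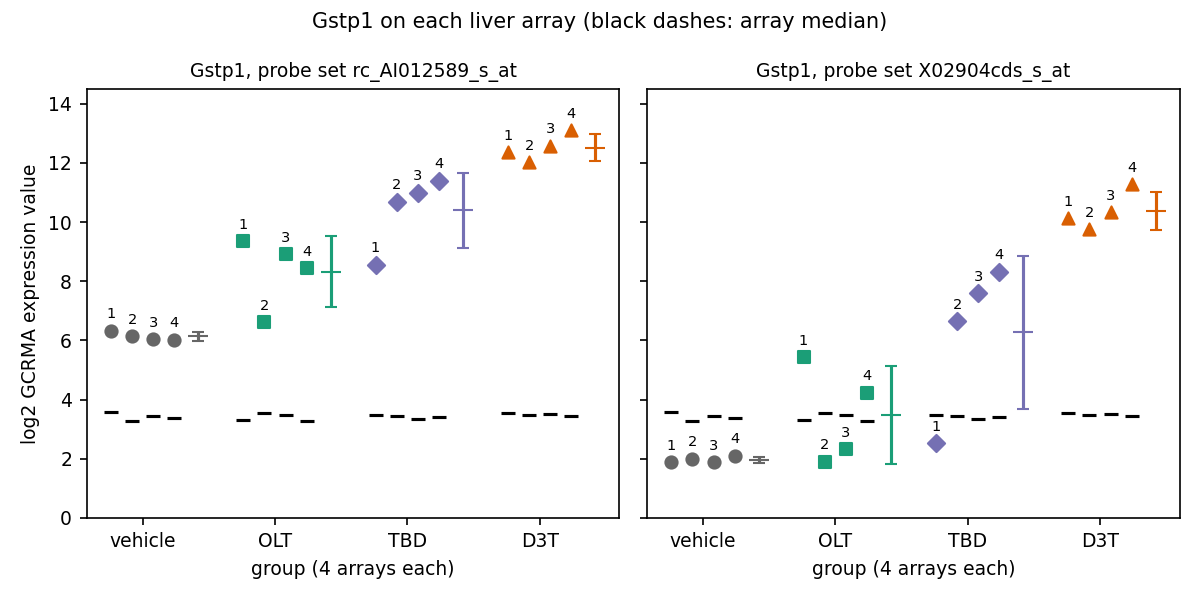
Log2 GCRMA value of both Gstp1 probe sets in each of 16 rat livers, by group; each point is 1 array and each bar a group mean with its SD over 4 arrays; small numbers name the replicate and black dashes the array medians. In the brighter probe set the means step up from 6.13 with vehicle to 8.33 with OLT, 10.41 with TBD and 12.51 with D3T, and OLT 2 and TBD 1 sit well below the rest of their groups.

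The difference of D3T from vehicle was 6.38 ± 0.59 log2 units (SE; 95% interval 5.12 to 7.63), or 83.2-fold. TBD differed from vehicle by 4.27 (3.02 to 5.53), or 19.3-fold, and OLT by 2.20 (0.94 to 3.45), or 4.58-fold. The SE was 0.59 for each difference, since the 4 groups share 1 estimate of the spread. That estimate pools SDs from 0.14 with vehicle to 1.27 with TBD. Intervals with OLT or TBD are therefore narrower than the spread of the groups compared would give. The 3 differences from vehicle share its arrays. As background, 24.9% of all fitted probe sets had groups that did not overlap between D3T and vehicle, 14.3% between TBD and vehicle and 14.7% between OLT and vehicle. Ordered by rise over vehicle among 3104 genes, Gstp1 stood at place 2 with D3T, 2 with TBD and 8 with OLT.

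The 3 pairs of compounds were compared at the same dose and time. D3T, the bare ring, lay 4.18 (2.93 to 5.44) above OLT, with its methyl and pyrazinyl groups, an 18.2-fold gap. D3T lay 2.11 (0.85 to 3.36) above TBD, with its tert-butyl group, a 4.30-fold gap. TBD lay 2.08 (0.82 to 3.33) above OLT, a 4.22-fold gap. This interval rests on the shared spread, although OLT and TBD had the widest SDs, 1.21 and 1.27. The groups of the first and the second pair did not overlap, which was so for 7.53% of all fitted probe sets between D3T and OLT and 9.21% between D3T and TBD, and the third pair overlapped (1.05% did not). The rise of Gstp1 was the largest of 3104 genes for D3T over OLT and stood at place 2 for D3T over TBD and for TBD over OLT. Expressed as a share of the D3T difference from vehicle on the log2 scale, OLT reached 34.4% and TBD 67.0%.

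The dimmer probe set kept the order of the 4 means, with wider overlap. With vehicle it read 1.87, 1.99, 1.87 and 2.10, with OLT 5.43, 1.90, 2.32 and 4.23, with TBD 2.52, 6.65, 7.60 and 8.33, and with D3T 10.13, 9.76, 10.33 and 11.28. All 4 vehicle arrays lay below their array's 20th percentile, as did 2 of the 4 OLT arrays, so no fold against vehicle is given for it. The D3T arrays lay above all others, OLT 2 lay among the vehicle arrays, and TBD 1 lay among the OLT arrays. It passed the filter on low values through treated arrays.

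Its differences are therefore not exact sizes where an end lies that low, and no interval is given for those from vehicle or OLT. The fitted D3T, TBD and OLT means lay 8.42, 4.31 and 1.51 above vehicle, the last 0.86 without OLT 1. D3T lay 6.91 above OLT, and TBD 2.80 above it. D3T minus TBD was 4.10 (1.93 to 6.28), with 1 TBD array below its array median. That array, TBD 1 at 2.52, had only 20.2% of its array's probe sets below it. The SD over the TBD arrays was 2.59, so this difference is not an exact size either. Both probe sets correlated at r = 0.960 over the 16 arrays, and at 0.865 after the group means were removed. Gstp3, a close relative of Gstp1, is its neighbour in the GRCr8 gene table, and whether probes of either set also match its transcript was not tested.

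The groups also differed in how widely Gstp1 varied from rat to rat. The SD of the brighter probe set was 0.14 with vehicle, where 26.3% of genes had a smaller SD. It was 1.21 with OLT and 1.27 with TBD, where 99.5% and 99.1% of genes had a smaller SD, and 0.45 with D3T, where 95.7% did. The median gene had SDs of 0.18, 0.18, 0.16 and 0.10 in the vehicle, OLT, TBD and D3T groups. In OLT and TBD the low rats, OLT 2 at 6.61 and TBD 1 at 8.56, made most of the range. After the group means were removed, Gstp1 correlated at r = -0.41 with the array medians over the 16 arrays. With the first principal component of the deviations from the group means r was 0.62, and the sign of a component is arbitrary. Whether array level plays a part was not tested.

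Leaving out the rats that stood apart kept the order of the means. Without OLT 1 and TBD 4, a choice made after the data were seen, Gstp1 differed from vehicle by 1.85 with OLT and 3.95 with TBD. Leaving out 1 rat at a time moved D3T minus vehicle between 6.18 and 6.54, TBD minus vehicle between 3.95 and 4.89 and OLT minus vehicle between 1.85 and 2.77. The same leave-outs moved D3T minus OLT between 3.61 and 4.53, D3T minus TBD between 1.49 and 2.43 and TBD minus OLT between 1.51 and 2.70.

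The other genes of the pathway were set beside Gstp1 to see how many rose and whether they were graded in the same way. The pathway here joins lists of detoxication, glutathione and NADPH genes with regulators of Gstp1, focus markers and genes for GST-P partners. Not all of its members are therefore detoxication genes. Of 104 listed genes other than Gstp1, 71 were on the array with a symbol of their own and 59 were tested. Against vehicle, limma with Benjamini-Hochberg adjustment called 20 higher and 3 lower with D3T, 15 higher and 2 lower with OLT, and 15 higher and 3 lower with TBD. As background, 4.61% of all genes were higher and 13.1% lower with D3T, 2.61% and 8.92% with OLT, and 2.8% and 10% with TBD. The median difference of the 59 genes was 0.28 with D3T, 0.25 with OLT and 0.20 with TBD, and the medians over all genes were 0.03, -0.03 and -0.02.

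Between compounds very few of the 59 passed. There was 1 between D3T and OLT and 1 between D3T and TBD, where 0.87% and 0.58% of all genes did. In limma 15 and 12 of the 59 had an unadjusted p under 0.05 in these pairs. D3T was the higher in 43 and 40 of the 59. Their median differences were 0.15 and 0.11, against 0.07 and 0.06 over all genes. None passed between TBD and OLT in limma, where 2 had an unadjusted p under 0.05 and 0.0322% of all genes passed. The 20 genes higher with D3T include the regulators Cebpa, Nfix and Rara. Of the 20 genes, 6 had means in the order OLT, TBD, D3T, and D3T was highest in 16. These genes, and the 143 below, were picked by their rise with D3T. That favours a high D3T mean and lower OLT and TBD shares, and no set was picked through OLT or TBD. The OLT share of the D3T difference had a median of 79.2% over these 20 genes, with a range of 30.7% to 100.3%, against 34.4% for Gstp1. The TBD share had a median of 74.8%, against 67.0% for Gstp1. Over all 143 genes higher with D3T, Gstp1 included, 74 had that order and 119 had D3T highest. Their median OLT and TBD shares were 54.9% and 63.7%, and 38 genes had an OLT share below that of Gstp1.

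**Figure D2:**
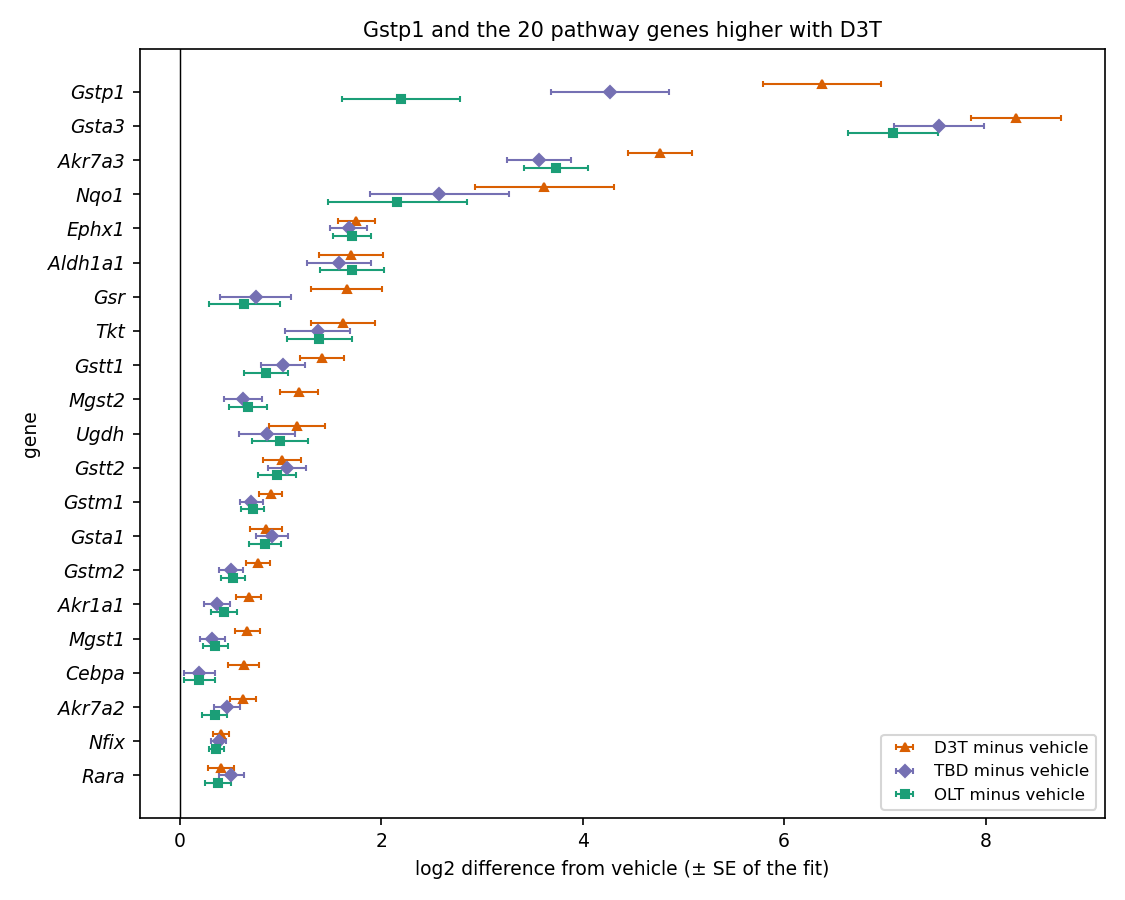
Log2 difference from vehicle (horizontal) for Gstp1 and the 20 pathway genes higher with D3T (1 row each), by compound; points are limma differences and bars their SE. Gstp1 goes from 2.20 with OLT to 4.27 with TBD and 6.38 with D3T, whereas Gsta3 lies at 7.08, 7.54 and 8.30 and Ephx1 at 1.71, 1.68 and 1.75. Each gene is shown by its brightest tested probe set.

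Among the other glutathione transferases, 8 of 14 tested genes rose with D3T and 7 with each of OLT and TBD, and none fell. Gsta3 read 3.20 ± 0.15 with vehicle, below the array median, and 10.28 ± 1.05 with OLT, 10.74 ± 0.77 with TBD and 11.50 ± 0.42 with D3T (SD, n = 4 each). Its gap between D3T and OLT was 1.22 (0.26 to 2.18; limma adjusted p = 0.268), where that of Gstp1 was 4.18. These values are of the brightest of its 3 tested probe sets, which rose by 8.30 with D3T, 7.08 with OLT and 7.54 with TBD. The mean of the 3 rose less, by 5.25, 4.23 and 4.69, with a gap between D3T and OLT of 1.02. Gstm1, a mu-class enzyme, rose by 0.90 ± 0.11 with D3T, 0.72 with OLT and 0.71 with TBD (SE; limma adjusted p = 0.000137 for D3T). The theta-class gene Gstt2 rose by 1.02, 0.97 and 1.07 with D3T, OLT and TBD, and the alpha-class Gsta1 by 0.86, 0.85 and 0.92. Close relatives in this family can share probe sequence, so values of single members are uncertain.

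Of 9 tested reductases and hydrolases, 6 rose with D3T, 4 with OLT and 5 with TBD, and 1 fell with TBD. Akr7a3, the aldehyde reductase that acts on aflatoxin dialdehyde, averaged 8.46 with vehicle, 12.19 with OLT, 12.03 with TBD and 13.23 with D3T. Its gaps of D3T over OLT and TBD were 1.04 (0.36 to 1.72; adjusted p = 0.158) and 1.20 (0.52 to 1.88; adjusted p = 0.13 in limma). Ephx1, microsomal epoxide hydrolase, read 12.91, 12.87 and 12.95 with OLT, TBD and D3T and 11.20 with vehicle. The D3T and OLT values of Ephx1 differed by 0.04 (-0.35 to 0.44). Aldh1a1, an aldehyde dehydrogenase, likewise lay at 11.60, 11.47 and 11.59 with OLT, TBD and D3T, above 9.89 with vehicle.

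Nqo1, the quinone reductase used as a standard readout of NRF2, was lowest with vehicle and highest with D3T in its means, as Gstp1 was. It averaged 4.37 with vehicle, 6.53 ± 1.01 with OLT, 6.95 ± 1.79 with TBD and 7.99 with D3T. The rise with D3T was 3.62 ± 0.69 (limma adjusted p = 0.00226), that with TBD 2.58 (adjusted p = 0.0228) and the difference with OLT was 2.16 (adjusted p = 0.0581). The TBD call was lost without vehicle 2 (adjusted p = 0.0597), without vehicle 4 (0.0623) and without TBD 2 (2.37, 0.0678). An OLT call was gained without OLT 2 (2.60, limma adjusted p = 0.0375), with array weights (0.01), with an intensity trend (0.0483) and with the filter at the 60th percentile (0.0416). Its gap of D3T over OLT was 1.46 (-0.02 to 2.93).

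Ptgr1, prostaglandin reductase, was the gene that passed between D3T and TBD, by 2.02 ± 0.33 (limma adjusted p = 0.00984). It averaged 9.66 with vehicle, 8.79 with OLT, 7.93 with TBD and 9.95 with D3T, so TBD lay below vehicle (-1.73, adjusted p = 0.00298) where Gstp1 lay above it. After the array medians were centred the call between D3T and TBD was lost (1.95, limma adjusted p = 0.0581). Abcc2, the canalicular exporter of glutathione conjugates, was the gene that passed between D3T and OLT, and D3T was lower, by -0.96 ± 0.15 (limma adjusted p = 0.00438). It averaged 9.86 with vehicle, 10.38 with OLT, 10.03 with TBD and 9.42 with D3T.

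Glutathione is the substrate that GST-P joins to electrophiles, and few of its genes passed in the main fit. Of 12 tested genes of glutathione and thioredoxin metabolism, 1 rose with D3T and none with OLT or TBD, where limma gave none even at an unadjusted p under 0.05. The riser was Gsr, glutathione reductase, at 1.66 ± 0.35 (adjusted p = 0.00476 in limma), against 0.64 with OLT and 0.75 with TBD. Gclc, the catalytic subunit of glutamate cysteine ligase, differed from vehicle by 1.14 (0.01 to 2.28; adjusted p = 0.157) with D3T. Gclm differed by 0.50 (-0.13 to 1.14), and the mean of its 3 probe sets by -0.42. With array weights, Gclc (1.11, limma adjusted p = 0.00258), Gclm (0.55, 0.00432), Gss (0.27, 0.0437) and Gpx2 (0.38, 0.0122) passed with D3T. Gss also passed with D3T after renewed quantile normalization (0.59, limma adjusted p = 0.0132). Of 4 tested NADPH genes, 1 rose with each compound, Tkt of the pentose phosphate pathway, by 1.62 ± 0.32 with D3T, 1.39 with OLT and 1.37 with TBD.

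The genes that shared the 9 letters printed above with Gstp1 had smaller differences. Prdx1 differed from vehicle by 0.03 (-0.21 to 0.27) with D3T, and Me1 by 0.96 (0.25 to 1.66; adjusted p = 0.0573 in limma), and neither passed the test. Me1 passed with the mean of its probe sets (1.17, limma adjusted p = 0.0204), with array weights (0.000504), with the filter at the 60th percentile (0.0413), without vehicle 1 (0.0488) and without D3T 2 (0.0469). Gsta3, with another version of the core, had the differences from vehicle given above, and Gclm did not pass in the main fit.

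Of 10 tested regulators of the Gstp1 gene, 3 rose and 2 fell with D3T, 1 rose and 2 fell with OLT, and 2 rose and 2 fell with TBD. Nfe2l2, which codes for NRF2, averaged 6.70 with vehicle, 7.01 with OLT, 6.71 with TBD and 5.96 with D3T, and none of its differences from vehicle passed. For D3T that difference was -0.74 (-1.41 to -0.06; adjusted p = 0.123 in limma). Jun, an AP-1 subunit, averaged 6.70, 5.97, 6.50 and 6.15 with vehicle, OLT, TBD and D3T and did not pass either in the main fit. These are RNA levels, and protein stability or binding was not measured.

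The regulators that passed with D3T were Cebpa, Cebpb, Nfia, Nfix and Rara. Cebpa, a factor of differentiated hepatocytes, rose by 0.63 ± 0.15 with D3T (limma adjusted p = 0.0106) and differed by 0.19 with OLT and with TBD. It was the one gene of the 20 whose OLT share, 30.7%, lay below that of Gstp1. Cebpb, a related factor, fell by 0.87 with D3T, 1.31 with OLT and 1.04 with TBD (limma adjusted p = 0.0159 for D3T). Nfia, a nuclear factor I member, fell by 1.43 with D3T, 1.22 with OLT and 1.14 with TBD, and the related Nfix rose by 0.41, 0.36 and 0.39. When its probe sets were averaged, Nfix differed by 0.23 with D3T (limma adjusted p = 0.436), 0.61 with OLT (0.0388) and 0.39 with TBD (0.197), so the D3T and TBD calls were lost. Rara, a retinoic acid receptor, rose by 0.41 with D3T (limma adjusted p = 0.0394) and 0.51 with TBD (0.0160). The Rara call with D3T was lost without any 1 of vehicle 2, vehicle 3, D3T 1, D3T 3 and D3T 4 (0.30 to 0.42, adjusted p 0.0694 to 0.118 in limma), and that with TBD without vehicle 2 (0.0515) or TBD 2 (0.0558).

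Of 9 tested markers of preneoplastic foci, where GST-P is the classical marker, 3 rose with D3T and TBD and 2 with OLT, and none fell. The D3T risers were Nqo1, Ephx1 and Akr7a3, which are also NRF2 targets and stand in the list of reductases and hydrolases. Ggt1, gamma-glutamyltransferase, the other classical focus marker, averaged 3.44 with vehicle, 3.47 with OLT, 3.57 with TBD and 3.53 with D3T. Afp, alpha-fetoprotein, averaged 4.78, 4.78, 4.79 and 5.06 in the same order. Neither passed against vehicle in the main fit. With array weights Afp (0.62, limma adjusted p = 0.0298), Gpc3 (0.43, 0.00422) and Gpx2 (0.38, 0.0122) of this list passed with D3T. Gpc3 also passed with D3T without vehicle 1 (0.45, limma adjusted p = 0.0466). None of 5 tested genes for partners of the GST-P protein passed against vehicle in the main limma fit, where 1 had an unadjusted p under 0.05 with OLT. With array weights Mapk8 passed with TBD (0.85, limma adjusted p = 0.0233) and Jun with D3T (-0.47, 0.0237). Prdx6, the peroxiredoxin that GST-P reactivates, differed by 0.05 (-0.56 to 0.66) with D3T.

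Bile duct cells are the normal source of GST-P in rat liver, and their markers were read beside it. None of the 7 tested bile duct genes passed against vehicle in the main limma fit, where 1 had an unadjusted p under 0.05 with TBD. The mean of the list lay between 3.67 and 4.08 with vehicle, 3.76 and 4.00 with OLT, 3.91 and 4.01 with TBD and 3.90 and 4.06 with D3T. Krt19, their defining keratin, lay below the array median on all 16 arrays, between 2.71 and 3.06. Spp1, Cftr and Muc1 were below it on all 16 arrays as well and Epcam on 15. Of the 7 tested bile duct genes, however, 1 was below it on all 16 arrays, and the list mean lay above the array medians. That mean covers only the 7 genes that passed the filter on low values, of 11 on the array. The filter itself favours a mean above the medians. Slc4a2, an anion exchanger of that list, read 5.79 to 7.54 over the 16 arrays. Its rise with TBD passed after renewed quantile normalization (0.98, limma adjusted p = 0.0139), with array weights (0.76, 0.00553) and without vehicle 4 (1.02, 0.00624). Its rise with D3T passed with array weights (0.55, 0.00471) and without vehicle 4 (0.72, 0.0294). Cd24 of the list also passed with D3T with array weights (0.22, limma adjusted p = 0.00311).

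Other cell type markers did move in these livers. Of 6 tested macrophage genes, 4 fell with each compound, Aif1 by 2.01 with D3T, 2.18 with OLT and 2.21 with TBD. The calls of Cd74, also among the 4, were lost after renewed quantile normalization (limma adjusted p = 0.0541 with D3T, 0.0528 with OLT and 0.117 with TBD). With TBD its call was also lost without any single vehicle array. Of 8 stellate cell genes, 3 fell with D3T (Col1a1, Col3a1 and Vim) and with TBD, and 2 with OLT. Calls for OLT and TBD were not firm: that of Col1a1 with OLT was lost in 7 of 8 fits without 1 array (-1.61 to -2.29, limma adjusted p 0.0570 to 0.135), and that of Vim with TBD in 6 of 8. After renewed quantile normalization the Col1a1 call with OLT and the Col3a1 and Vim calls with TBD were lost (limma adjusted p = 0.0625, 0.0528 and 0.119). Of 11 hepatocyte genes, 3 rose and 1 fell with D3T. None rose with OLT or TBD, where 2 and 1 fell. Their median differences were 0.005 with D3T, -0.04 with OLT and 0.02 with TBD. With D3T, Alb, albumin, rose by 0.50 ± 0.11 (limma adjusted p = 0.00537), a call lost after renewed quantile normalization (0.10, limma adjusted p = 0.108). The part of these cell types in the Gstp1 levels was not tested. Of 11 genes of dividing cells, none rose in the main fit. Among them 1, Ccnd1, fell with each compound, by 1.06 with D3T, 1.11 with OLT and 1.31 with TBD. That call was lost with renewed quantile normalization and, for D3T and OLT, in 6 of the 8 fits that left out 1 array of the groups compared. In some other settings Top2a, Cdk1, Ccne1 and Aurkb passed as higher with D3T, Top2a with OLT and Ccne1 with TBD. With array weights Top2a rose by 0.65 with D3T (limma adjusted p = 0.00731) and 0.93 with OLT (0.0148), and Cdk1 by 0.76 with D3T (0.0155).

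**Figure D3:**
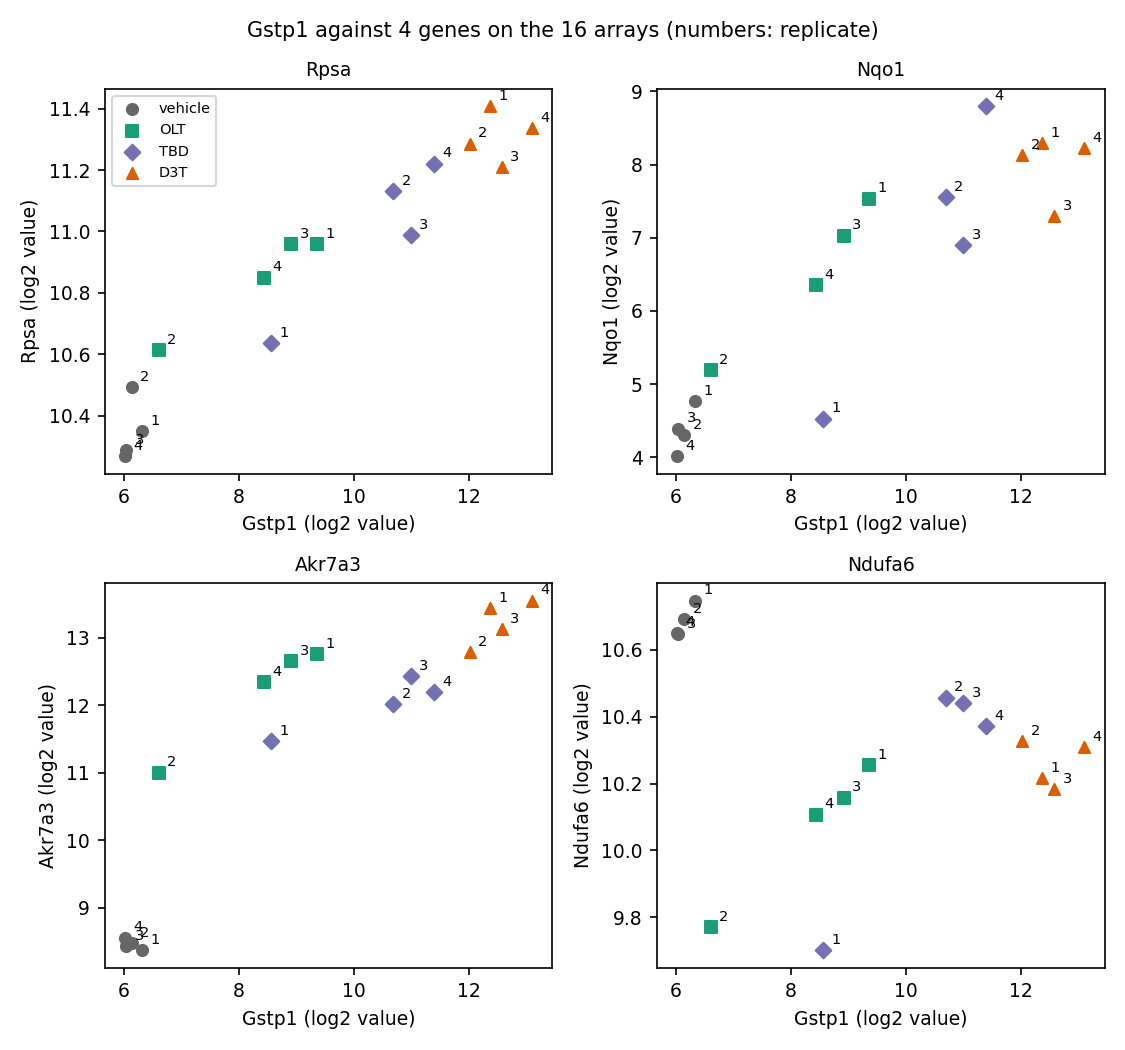
Log2 GCRMA value of Gstp1 against that of other genes in each of 16 livers, for Rpsa, Nqo1, Akr7a3 and Ndufa6; each point is 1 array, marked by group and numbered by replicate. Rpsa (r = 0.961) and Nqo1 (r = 0.904) are higher where Gstp1 is higher, Ndufa6 (r = -0.23) is highest with vehicle, and the rats OLT 2 and TBD 1 lie low within their groups in all 4 plots.

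The genes whose level followed Gstp1 over the 16 arrays were ranked by Pearson's r, as a description, since arrays of a group share their treatment. The 8 highest were Rpsa (0.961), Ptov1 (0.942), Rplp0 (0.940), Acaa1b (0.931), Aldh1l1 (0.905), Nqo1 (0.904), Rack1 (0.900) and Haao (0.896). Rpsa, Rplp0 and Rack1 code for components of the ribosome, and Acaa1b for a peroxisomal thiolase. Rpsa moved far less than Gstp1, by 0.96 ± 0.12 with D3T, 0.49 with OLT and 0.64 with TBD. Without D3T 3 and D3T 4, the arrays farthest from the Gstp1 median, its r was 0.963. The 4 lowest were Baat (-0.892), Igf1 (-0.871), Sult1c3 (-0.864) and Lgals3 (-0.859). Over the 3103 other genes the median r was 0.01, and 27 exceeded 0.8.

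With the group means removed, the likeness shows which genes shared the rat-to-rat deviations of Gstp1. The highest were Ndufa6 (0.895), Akr7a3 (0.886), Rpl31 (0.882), Nqo1 (0.874) and Rpl11 (0.865). Ndufa6, a subunit of respiratory complex I, had r = -0.23 before the group means were removed, so it followed Gstp1 within groups and not between them. Over all other genes the median was -0.18, and 318 (10.2%) exceeded 0.5. These values lean on the low rats. Without TBD 1 and OLT 2, Ndufa6 fell to 0.638, Rpl11 to 0.532 and Rpsa from 0.845 to 0.558, whereas Akr7a3 kept 0.767, Rpl31 0.711 and Nqo1 0.673.

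**Figure D4:**
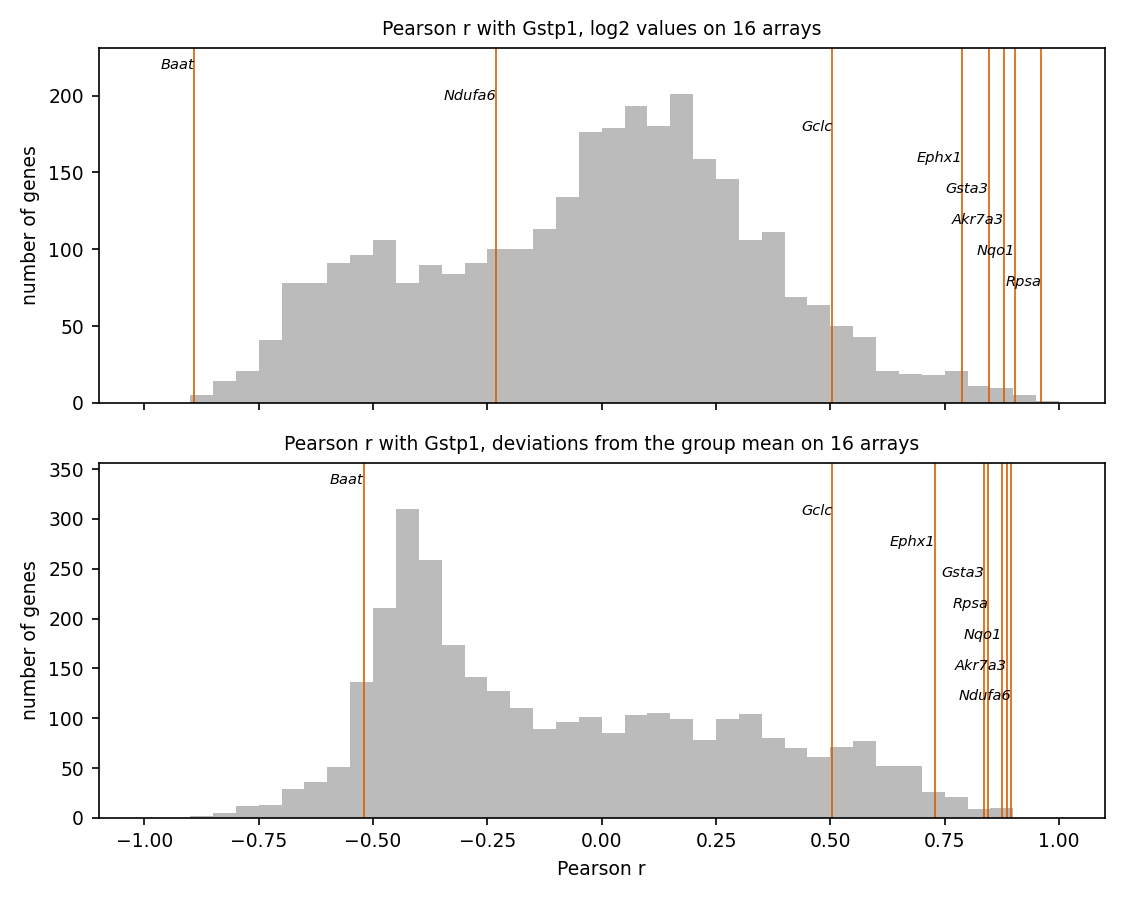
Number of genes (vertical) by Pearson's r with Gstp1 (horizontal) for 3103 other genes, over the log2 values of 16 arrays (top) and over their deviations from the group means (bottom); lines mark named genes. Rpsa at 0.961 and Nqo1 at 0.904 lie at the right end of the top histogram, and Ndufa6 goes from -0.23 in the top to 0.895 in the bottom.

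The low rats OLT 2 and TBD 1 were low for other induced genes. They read 5.19 and 4.53 for Nqo1, 11.01 and 11.47 for Akr7a3, and 9.08 and 9.66 for Gsta3. They also read 12.49 and 12.36 for Ephx1 and 10.63 and 10.66 for Aldh1a1. OLT 2 was the lowest of its group in 11 of the 20 pathway genes that rose with D3T and in 20.2% of all genes, and the highest in 48.8% of all genes. TBD 1 was lowest in 8 of 20 and in 20.3% of all genes, and TBD 4, which had the highest Gstp1 of its group, was lowest in 9 of 20 and in 14.2%. D3T 3, with the second highest Gstp1 of its group, was lowest in 12 of 20 and in 14.4% of all genes, so being lowest in these genes did not go with low Gstp1 in every group. What set these rats apart was not tested.

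None of the 3104 genes had 4 groups in the order vehicle, OLT, TBD, D3T without overlap, and none had the reverse order. Gstp1 itself missed this by the overlap of TBD 1 with OLT. With OLT and TBD taken as a single middle group, Gstp1 was 1 of 7 genes (0.226%) with every D3T array above and every vehicle array below all others.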

How the data were processed

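The deposited table holds log2 values of 8740 probe sets of a 1-colour Affymetrix rat array in 16 livers. Per the submitters' processing notes, the authors made these log2 values with GCRMA, and no version of it is stated in the labels. GCRMA pulls values near background together, which shrinks differences between values that are both dim. A difference between a dim and a bright value is not an exact size and need not be shrunken. The dimmer Gstp1 probe set differed more between D3T and vehicle than the brighter one, by 8.42 against 6.38. Scan dates and detection calls were left aside.

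Names came from the platform annotation, where 7006 probe sets carry 1 symbol, 308 several and 1426 none. Of the first, 6985 matched the GRCr8 gene table through Entrez ID. Probe sets entered the fit when 4 or more arrays had them over the 40th percentile of that array, and the brightest tested probe set stood for a gene.

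The fit used limma 3.58.1 (R 4.3.3) on all 16 arrays together (residual df 12, prior df 2.41), and was checked on simulated data. Tests were two-sided, and p-values were adjusted by Benjamini-Hochberg across the 5323 fitted probe sets with 0.05 as the threshold. Each array is 1 animal, so p-values rest on animal and technical spread together. Promoters were read with pandas 2.3.3 under Python 3.11.15, and plots made with matplotlib 3.10.9.

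The gene, the pathway and cell type lists and the rules were chosen with earlier results of these data known. Named were Gstp1, 17 set genes where they had a value, up to 4 called members of a list per comparison, and the genes most and least like Gstp1. Keap1 has no probe set with 1 symbol and is not named with values. Prdx1, Me1, Slc4a2, Epcam, Spp1, Cftr, Muc1 and the genes of the closing observations fall outside that rule and were picked with their values known. Alternatives were other filters, priors, normalizations, array weights, a replicate block, other probe sets and leaving out arrays.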

Additional observations from a re-analysis of the deposited data

Results flagged for a closer look

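Across 100 groups of 4 arrays examined, for Gstp1 and the genes named beside it, 5 held 1 array set apart from the other 3 by more than Dixon's 95% critical value, and chance alone sets apart about 1 in 20. None of them was a group of Gstp1. Nqo1 read 7.29 in D3T 3, below 8.13 to 8.29 in the other D3T rats. Aldh1a1 read 10.63 in OLT 2, the rat with the lowest Gstp1 of its group, below 11.83 to 12.07 in the others. In TBD 1, the TBD rat with the lowest Gstp1, Ptov1 read 8.69, below 9.06 to 9.11, and Ndufa6 read 9.70, below 10.37 to 10.46. Gstm1 read 13.78 in TBD 4, below 13.92 to 13.94 in the other TBD rats.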

How the results depend on the processing

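Of the alternatives for the 6 Gstp1 differences, 96 moved less than 1 SD, 6 moved more and 0 changed sign. Some of the 96 could not move. A floor at the 20th percentile does not reach the brighter probe set, and a replicate block leaves the differences of these balanced groups as they are. Leaving out OLT 1 and TBD 4 does not touch D3T minus vehicle. With the mean of both probe sets D3T minus vehicle was 7.40, D3T minus OLT 5.55 and D3T minus TBD 3.10, and with the dimmer probe set alone 8.42, 6.91 and 4.10. Its vehicle values and part of its OLT values lie in the lowest 20% of their arrays, and TBD 1 just above. These differences are therefore not exact sizes. Of the counts of called pathway genes, 17 for OLT became 10 at an adjusted p under 0.01. The count of 1 between D3T and TBD became 0 in a fit on 8 arrays and 0 with medians centred, and 4 with array weights. The count of 1 between D3T and OLT became 3 with array weights and 2 without OLT 1 and TBD 4. Against vehicle, array weights gave 34 called pathway genes with D3T, 24 with OLT and 27 with TBD. Leaving out 1 array gave 21 to 24 called genes for D3T, 13 to 16 for OLT, 14 to 21 for TBD, and 1, 1 and 0 between compounds. Replicate numbers did not pair the rats: 24 same-numbered pairs had a median correlation of -0.01 (-0.52 to 0.32), and 5 of 16 arrays correlated best with their own number. With the replicate block the counts were 21, 14 and 17 against vehicle and 1, 1 and 0 between compounds. The Gstp1 differences were equal by design, with an SE of 0.59. Scaling moved the median of all genes by less than 0.1. Without detection calls, values below the array median have no set limit of detection. The cause of these shifts was not tested.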

Other observations

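Beside Gstp1, 6 genes had every D3T array above and every vehicle array below all OLT and TBD arrays, and they are named because of these values. They were Akr7a3, Acaa1b, Mif, Ddt, Tmem205 and Apoe. Mif, macrophage migration inhibitory factor, averaged 9.54 with vehicle, 11.23 with OLT, 11.08 with TBD and 11.62 with D3T. Its relative Ddt, D-dopachrome tautomerase, averaged 11.53, 11.89, 11.95 and 12.18 in the same order. Apoe, a lipoprotein component, averaged 13.74, 14.07, 14.14 and 14.38, and Tmem205, a membrane protein, 10.55, 11.29, 11.31 and 11.66. TBD minus OLT was -0.15 for Mif, 0.06 for Ddt, 0.07 for Apoe and 0.02 for Tmem205, and 2.08 for Gstp1.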
